A study of Arabidopsis thaliana with 6 samples.

Results

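Long noncoding and antisense RNAs were examined in rosette leaves of Arabidopsis thaliana of 2 genotypes. These were Col-0, the wild type, and a mac3a mac3b double mutant, and each had 3 libraries. MAC3A and MAC3B are paralogous subunits of a plant protein complex that is bound to the spliceosome, and the study compared the double mutant, which flowers early, with Col-0. All plants were in the vegetative phase at 40 days of age, kept at 22 °C under short days (8 h of light, 16 h of dark). Poly(A) RNA was sequenced. The labels do not say whether the libraries of a genotype came from separate plants, so the p-values measure the spread between these libraries, and they give neither the mutant alleles nor a time of day.

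The transcripts were chosen by their annotation and level. Of 38194 rows in the expression table, 3559 carried a feature type that named a long noncoding or an antisense RNA, and 172 of these had a mean of at least 1 RPKM over the 6 libraries. RPKM is the number of reads scaled to transcript length and library size. All 172 were kept and are called members below. The table listed 145 of them as antisense_lncRNA, 25 as lnc_RNA and 2 as antisense_RNA. The members just inside the limit were AT1G05767 at 1.00 RPKM and AT2G05875 at 1.01 RPKM, and those just outside were AT1G07823 at 0.99 RPKM and AT1G26218 at 0.98 RPKM.

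A natural antisense RNA is made from the DNA strand opposite to another gene and can overlap that gene's exons. Long noncoding RNAs are capped, often spliced and often polyadenylated like messenger RNA, but code for no known protein, and they are usually made at low levels. In Arabidopsis a few have described roles. FLORE, the antisense RNA of the transcription factor gene CDF5, oscillates through the day in the opposite phase to CDF5 and promotes flowering.

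FLORE (AT1G69572) was the member with the smallest adjusted p for a difference in level and also the one whose intron rose most in retention in percentage points. Its intron is shown with 4 of the next 5 introns by that measure. The other, intron 1 of AT2G31902, could not be placed in the annotation. The sequences were read from the RefSeq genome of build TAIR10.1 with 10 exon bases on each side, and the capitals mark the first and last 2 bases of each intron.
AT1G69572 (FLORE) intron 1, chr1:26161710-26161795, plus strand: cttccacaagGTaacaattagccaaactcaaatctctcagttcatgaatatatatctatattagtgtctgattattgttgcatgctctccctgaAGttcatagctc
AT2G23040 intron 5, chr2:9809695-9809792, minus strand: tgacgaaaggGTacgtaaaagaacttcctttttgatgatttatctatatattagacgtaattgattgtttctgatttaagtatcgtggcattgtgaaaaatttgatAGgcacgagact
AT3G24518 intron 4, chr3:8941627-8941711, minus strand: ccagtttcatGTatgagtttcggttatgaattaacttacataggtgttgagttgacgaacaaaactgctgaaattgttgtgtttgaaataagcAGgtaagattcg
AT3G21755 intron 2, chr3:7667044-7667123, minus strand: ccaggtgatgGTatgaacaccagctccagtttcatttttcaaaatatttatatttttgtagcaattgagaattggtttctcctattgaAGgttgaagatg
AT1G72855 intron 1, chr1:27416452-27416524, plus strand: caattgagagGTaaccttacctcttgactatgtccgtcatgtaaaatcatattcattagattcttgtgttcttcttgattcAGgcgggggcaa
All 5 open with GT and close with AG on the member's own strand. Over all 250 member introns that could be placed by their length, 242 ran from GT to AG, 2 ran from GC to AG, and 0 ran from CT to AC, which is how a GT to AG intron reads on the other strand. The places and strands are those of the annotation, so these letters describe the annotated introns and say nothing about the strand of the reads.

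The mutated genes were checked first. MAC3A (AT1G04510) averaged 19.6 ± 2.68 RPKM in Col-0 libraries and 7.03 ± 1.60 in those of the mutant (SD, n = 3), at a limma adjusted p of 0.100 and, when the fit had the replicate number as a block, of 0.0243 (written below as "blocked"). MAC3B (AT2G33340) averaged 40.3 ± 7.55 and 7.41 ± 1.68 RPKM (SD, n = 3), at a limma adjusted p of 0.0377. Of the mRNA rows that mark cell types, all 4 leaf markers were at high levels in each library, while the summed level of 4 root hair markers was at most 0.03 RPKM. The summed level of 5 inflorescence and flower markers was 0.38 to 0.73 RPKM in Col-0 and 1.07 to 1.12 RPKM in the mutant, mostly AGAMOUS, with LEAFY at 0 in all libraries. The leaf markers RBCS1A, CAB2, RCA and LHCA1 were higher in the mutant in all 3 same-numbered pairs, at 144 to 246% of the Col-0 mean with a median log2 fold change of 0.71, and none passed limma with or without the block. At an unadjusted p under 0.05 there were 0 of these 4 without and 1 with the block. The part of these marker genes in the results was not tested. In the table of unique reads, which held 78 of the members, 34661 to 79529 reads of a library fell on them.

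The members were weakly expressed and short of introns. Their median level was 2.47 RPKM, against 11.0 RPKM for the mRNA rows above the same limit, and 68 members were under 2 RPKM while 10 reached 10 RPKM. The median exon length was 1596 bases in members and 1810 bases in mRNA rows, once the exons of all annotated transcripts of a gene were merged. No annotated transcript had an intron in 53 members (30.8%), compared with 11.5% of mRNA rows. The median GC content of the exons was 40.9% in members and 41.2% in mRNA rows. The longest open reading frame, read from an ATG to the next stop codon in the merged exons, had a median of 60 codons.

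The most abundant member was AT3G06355, a lnc_RNA of 502 bases at chr3:14199575-14200076. It was at 124, 89.3 and 122 RPKM in Col-0 and at 125, 137 and 191 RPKM in the mutant. The 3 mutant libraries were all higher than the Col-0 libraries, but the difference did not pass the test, with a log2 fold change of 0.42 (SE 0.26), a limma adjusted p of 0.625 (0.253 blocked). Its RPKM was 4.67 times the level of its unique reads, so most of its signal came from reads that map to several places.

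The next members by level were far lower. AT4G01593 was at 25.4, 27.3 and 30.5 RPKM in Col-0 and at 19.1, 21.8 and 11.2 RPKM in the mutant. AT4G38932 was at 22.6, 28.3 and 20.4 RPKM in Col-0 and at 13.7, 19.2 and 8.95 RPKM in the mutant. In both, every mutant library was below every Col-0 library, with limma adjusted p of 0.408 and 0.397.

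AT1G05562 lies wholly within exons of UGT75B1, a glucosyltransferase gene of the other strand, and averaged 14.8 ± 2.68 RPKM in Col-0 and 11.5 ± 2.88 in mutant libraries (SD, n = 3). AT1G06002 shares 96.7% of its exon bases with AT1G06000 (UGT89C1, a flavonol rhamnosyltransferase gene) and was at 13.7 ± 1.52 and 11.2 ± 4.999 RPKM. AT2G23672, opposite the photosystem I assembly gene YCF37, was at 14.7, 14.0 and 16.0 RPKM in Col-0 and at 6.31, 9.23 and 3.81 RPKM in the mutant. Only the last of these had groups that did not overlap. The remaining members of the first 10 by level, AT1G29357, AT5G18255, AT2G24592 and AT2G26355, had overlapping groups and Col-0 means of 13.9 to 16.0 RPKM against 6.19 to 10.6 RPKM in the mutant.

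**Figure D1:**
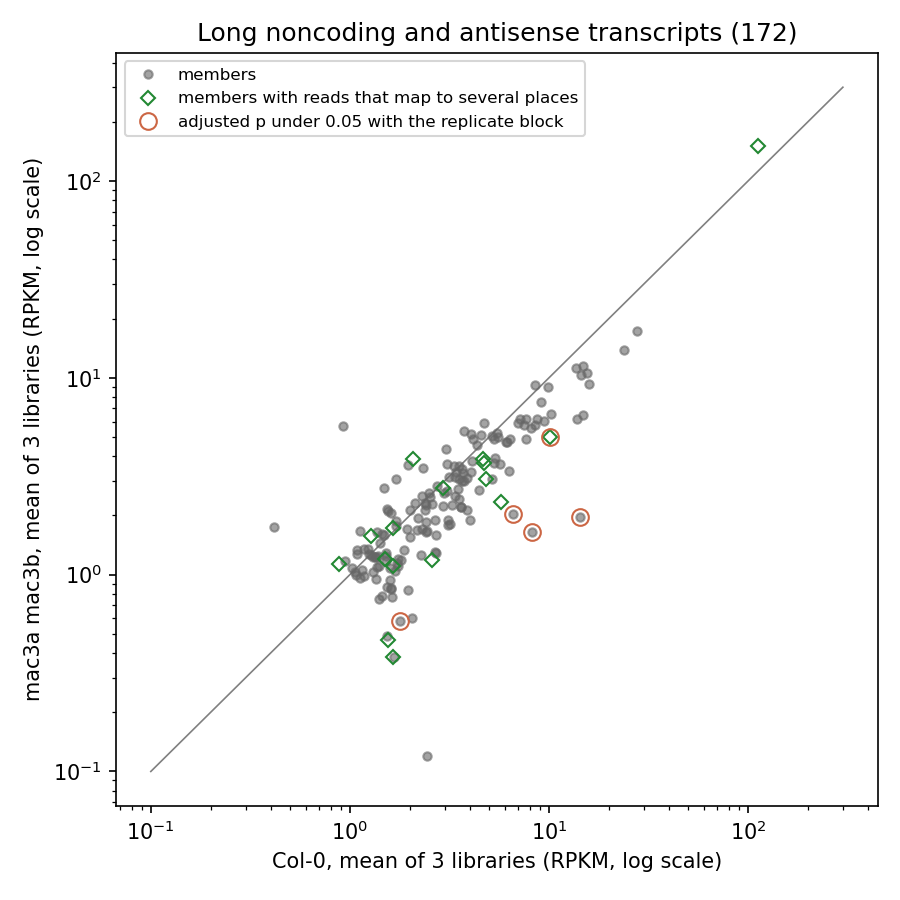
Mean level of each of the 172 members in Col-0 (x axis) and in the mac3a mac3b mutant (y axis), in RPKM on log scales, each the mean of 3 libraries. The line marks equal levels, diamonds are the 16 members whose signal includes many reads that map to several places, and rings are the 5 members that passed the test with the replicate block. More points lie below the line (lower in the mutant) than above it.

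The levels of members were compared between the genotypes with limma on log2(RPKM + 1) over all 17163 rows with a mean of at least 1 RPKM, and p-values were adjusted over all of these by the Benjamini-Hochberg method with a threshold of 0.05. No member passed the test (0 of 172), while 0.105% of all rows did. At an unadjusted p under 0.05 there were 24 lower members, 14.0% against 4.99% of all rows, and 2 higher members, 1.16% against 6.04%. Same-numbered libraries of the genotypes deviated together, and with the number as a block 5 members passed, all lower in the mutant (2.91%), while 1.82% of all rows passed as lower. No member passed as higher with the block, compared with 2.7% of all rows. At an unadjusted p under 0.05 the blocked fit had 51 lower members (29.7%, against 12.0% of all rows) and 5 higher members (2.91%, against 12.7%). With the block and libraries scaled to equal totals, 12 members passed as lower and 1 as higher, against 3.67% and 3.06% of all rows.

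The count of calls depended on the tool and on which libraries were used. On unique read counts of 78 members, edgeR called 0 without the block and 1 with it. Without the block 9 had an unadjusted p under 0.05 in edgeR, and the share of all rows at that threshold is not given here. DESeq2 called 3 without and 14 with the block, and all of the calls of both tools were lower. The background for lower calls was 1.39% and 7.03% in the DESeq2 fits without and with the block, and 1.22% in edgeR with it. For higher calls it was 2.16%, 7.07% and 2.66% in the same fits. The 3 members called by DESeq2 without the block were FLORE, AT1G51645 and AT5G59662. In the authors' deposited table, 10 of 168 members were lower with an adjusted p under 0.05 and 1 was higher, compared with 1.68% and 2.56% of all rows with an adjusted p. FLORE was called in every one of these fits that called any member. The other members called by limma with the block had no value in the fits on unique counts, so they could not be called there. Leaving out both libraries of replicate number 1, 2 or 3 from the fit with the block left 0, 3 and 2 calls.

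FLORE (AT1G69572, chr1:26161551-26162791, plus strand) shares 99.9% of its exon bases with CDF5 (AT1G69570), a DOF transcription factor gene of the CYCLING DOF FACTOR family that lies on the minus strand. FLORE was at 6.42, 10.3 and 7.92 RPKM in Col-0 and at 1.28, 2.33 and 1.31 RPKM in the mutant. The groups were far apart, and the mutant mean was 19.98% of that of Col-0. The log2 fold change was −1.80 (SE 0.24), at a limma adjusted p of 0.0801 (0.0154 blocked). The authors' deposited table gives a log2 fold change of −2.37 and an adjusted p of 2.36e-07.

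CDF5 itself stood the other way round. It was at 0.70, 1.45 and 2.13 RPKM in Col-0 and at 3.02, 3.71 and 3.22 RPKM in the mutant. All 3 mutant libraries were above all Col-0 libraries, but this was no call, as the log2 fold change was 0.87 (SE 0.25) at a limma adjusted p of 0.303 (0.0748 blocked). In Col-0 every library had more FLORE than CDF5, and in the mutant every library had more CDF5 than FLORE. RPKM is scaled to length, so the levels of both genes can be set side by side. The labels give no time of day, and both genes are known to oscillate over the day.

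AT1G04313 is a lnc_RNA of 348 bases (chr1:1444692-1445039, minus strand) with no described role known here. It was at 10, 19.9 and 13.1 RPKM in Col-0 and at 1.33, 3.90 and 0.65 RPKM in the mutant. Every mutant library was below every Col-0 library, and the mutant mean was 13.7% of the Col-0 mean. Its log2 fold change was −2.48 (SE 0.44), at a limma adjusted p of 0.143 (0.0228 blocked). The coding gene on the other strand, AT1G05035, was at no more than 0.02 RPKM in any library.

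AT5G01215 (chr5:84466-86258, minus strand) shares 99.6% of its exon bases with the coding gene AT5G01210. It was at 5.77, 6.90 and 7.10 RPKM in Col-0 and at 1.29, 3.12 and 1.68 RPKM in the mutant, with no overlap. Its log2 fold change was −1.37 (SE 0.25), at a limma adjusted p of 0.144 (0.0291 blocked). The partner AT5G01210 was at 14.4, 11.7 and 15.5 RPKM in Col-0 and at 9.20, 11.0 and 12.3 RPKM in the mutant, where the groups overlapped and the limma adjusted p was 0.576 (0.234 blocked).

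The remaining calls were weaker. AT3G03165, a lnc_RNA of 417 bases with no opposite coding gene, was at 1.49, 2.02 and 1.83 RPKM in Col-0 and at 0.35, 0.66 and 0.74 RPKM in the mutant, at a limma adjusted p of 0.220 (0.0483 blocked). It is among the 19 members (11.0%, against 1.48% of all rows tested) that reached the minimum of 1 RPKM through the Col-0 level alone. Of these members 7 were lower without overlap, as were 94 of the 254 rows tested of that kind. Through the mutant level alone 4 members reached it (2.33%, against 1.81% of all rows tested). Such members had to differ, and AT3G03165 is the single one among the 5 calls. AT1G25098 was at 10.02, 10.46 and 10.04 RPKM in Col-0 and at 4.78, 6.49 and 3.68 RPKM in the mutant, at a limma adjusted p of 0.199 (0.0457 blocked). Nearly all the signal of AT1G25098 came from reads that map to several places, so it cannot be assigned to this locus alone. Without the 16 members of that kind, 4 calls were left with the block.

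**Figure D2:**
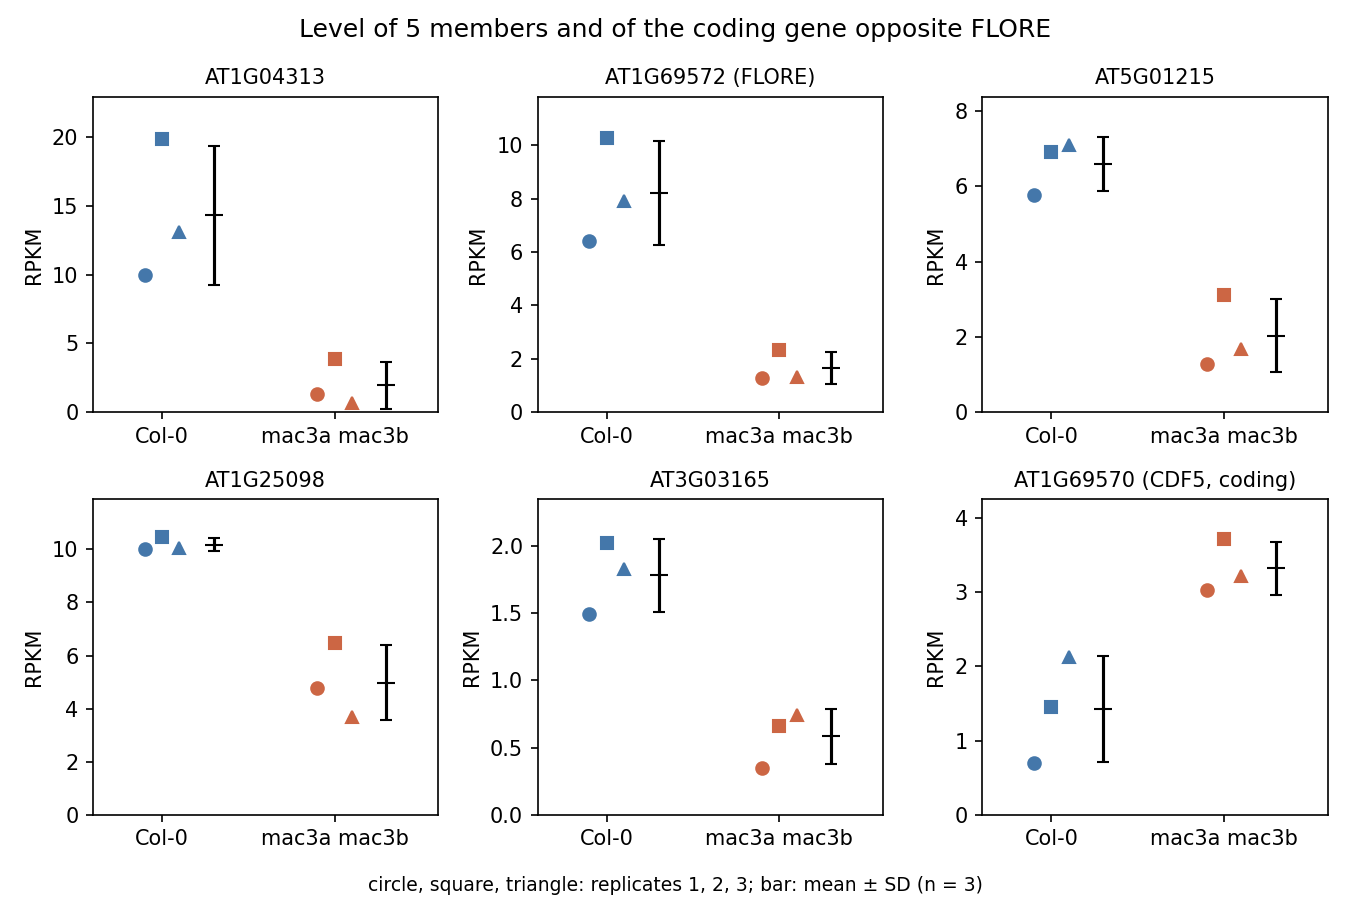
RPKM of the 5 members that passed limma with the replicate block and of CDF5, the coding gene opposite FLORE, in Col-0 and in the mac3a mac3b mutant. Symbols are libraries by replicate number and bars are the mean ± SD (n = 3). In the 5 members every mutant library lies below every Col-0 library, and in CDF5 every mutant library lies above.

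Some members were called in the authors' deposited table but not by limma without or with the block on the deposited scale. AT2G23672, AT2G13665, AT1G51645, AT5G59662, AT2G05215 and AT4G07385 were lower there, and AT3G06325 was higher. With the block and equal totals, limma called AT2G23672, AT2G05215 and AT3G06325 as well. AT4G07385, which overlaps the end of the cold response gene DREB1A by 29 bases, was at 0.13, 5.62 and 1.55 RPKM in Col-0 and at 0.01, 0.30 and 0.05 RPKM in the mutant, so the groups overlapped and a single Col-0 library held most of its signal. AT3G06325 was at 0.42, 0.25 and 0.58 RPKM in Col-0 and at 2.54, 1.23 and 1.48 RPKM in the mutant, at a limma adjusted p of 0.247 (0.0612 blocked). It shares 92 bases on its own strand with the precursor of the microRNA MIR5642a, so reads in those bases could belong to either. AT3G06325 reached the minimum of 1 RPKM through the mutant level alone, and AT4G07385 through the Col-0 level alone, so both had to differ.

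Beyond single calls, most members had lower values in the mutant. The log2 fold change was negative in 128 members (74.4%), compared with 49.1% of all rows. All 3 mutant libraries were below all 3 Col-0 libraries in 44 members (25.6%, against 7.28% of all rows), and above in 7 members (4.07%, against 9.15%). The mutant was lower in all 3 same-numbered pairs in 82 members (47.7%, against 23.4%) and higher in all 3 in 17 (9.88%, against 25.4%). The 7 members with higher mutant values were AT3G06355, AT2G08665, AT1G05333, AT4G06410, AT1G20515, AT1G26208 and AT3G06325, named after their values were seen. AT2G08665 shares 99.8% of its exon bases with LHB1B2, a gene of the light-harvesting antenna at a mean of 8957 RPKM, and was itself at a mean of 4.61 RPKM. The shares above cover the 19 members (11.0%, against 1.48% of all rows tested) that reached 1 RPKM through the Col-0 level alone. Their mutant mean had to be lower, and 7 of them are among the 44. The 4 members that reached it through the mutant level alone are covered too. The medians and sums below include both kinds.

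The median log2 fold change was −0.22 over members, 0.01 over all rows and 0.01 over mRNA rows. Within ranges of mean RPKM chosen after the files were seen, the members' median was −0.18 from 1 to 2 RPKM (68 members), −0.20 from 2 to 5 RPKM (71 members), −0.30 from 5 to 10 RPKM (23 members) and −0.61 at 10 RPKM or more (10 members). The mRNA rows in the same ranges had medians of 0.02, 0.02, 0.02 and 0.01. Log2(RPKM + 1) understates the change of weakly expressed rows, so the ranges are not comparable with each other in size.

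**Figure D3:**
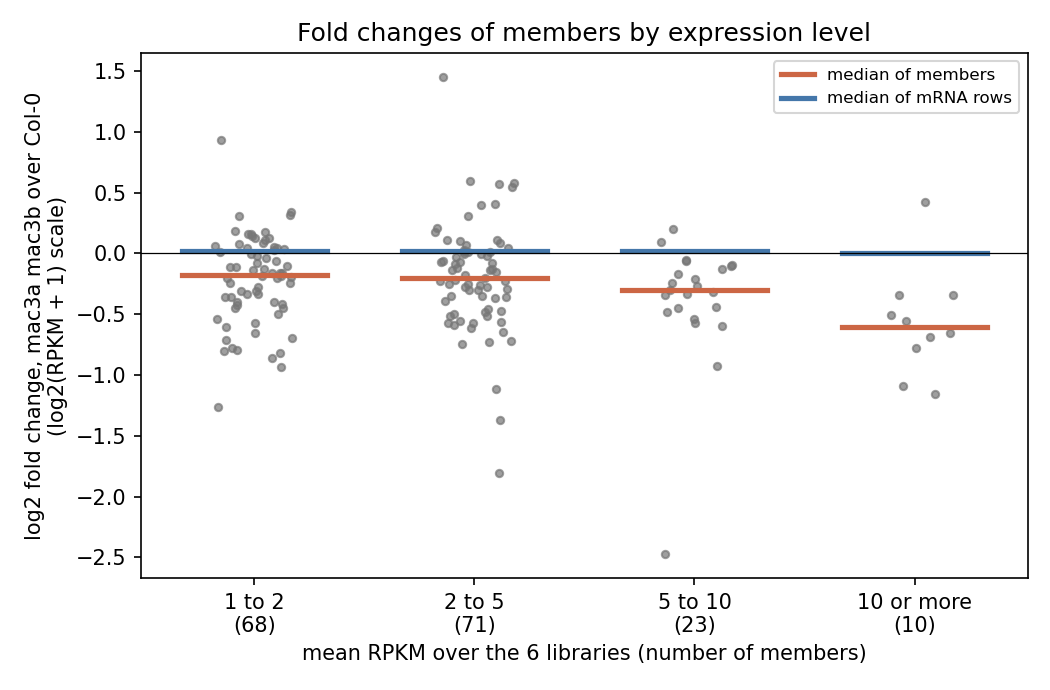
Log2 fold change of the mutant over Col-0 for each member (points) in 4 ranges of mean RPKM, with the median of the members and of the mRNA rows in the range (lines). The members' medians lie between −0.18 and −0.61, and those of the mRNA rows at 0.01 to 0.02.

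By kind, the median was −0.23 over 145 antisense_lncRNA members, −0.12 over 25 lnc_RNA members and −0.50 over both antisense_RNA members. The 307 rows of these feature types with a mean between 0.1 and 1 RPKM, which are no members, had a median of −0.05. Log2(RPKM + 1) understates the change of these rows too. The values of 27 were lower and of 16 higher without overlap, and the share over all rows of that level is not given here. The replicate pairs differed in size. The median difference over members was −0.12 in the pair numbered 1, −0.17 in pair 2 and −0.42 in pair 3. Without the mutant library of replicate 3 the median over members was −0.14.

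The summed level of the members was 797, 781 and 807 RPKM in the Col-0 libraries and 674, 728 and 602 RPKM in the mutant libraries. The groups did not overlap, and the ratio of the means was −0.25 on the log2 scale. A two-sided exact permutation test over the libraries gave p = 0.1, the smallest value that 3 against 3 libraries can give. Without AT3G06355 the ratio was −0.40, and without the 16 members with reads that map to several places −0.39, both with an exact permutation p of 0.1. As a share of the summed RPKM of all rows, which itself ran from 541542 to 710822, the members made up 0.112, 0.132 and 0.149% in Col-0 and 0.102, 0.119 and 0.0880% in the mutant. On that scale the groups overlapped and the exact permutation p was 0.2.

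**Figure D4:**
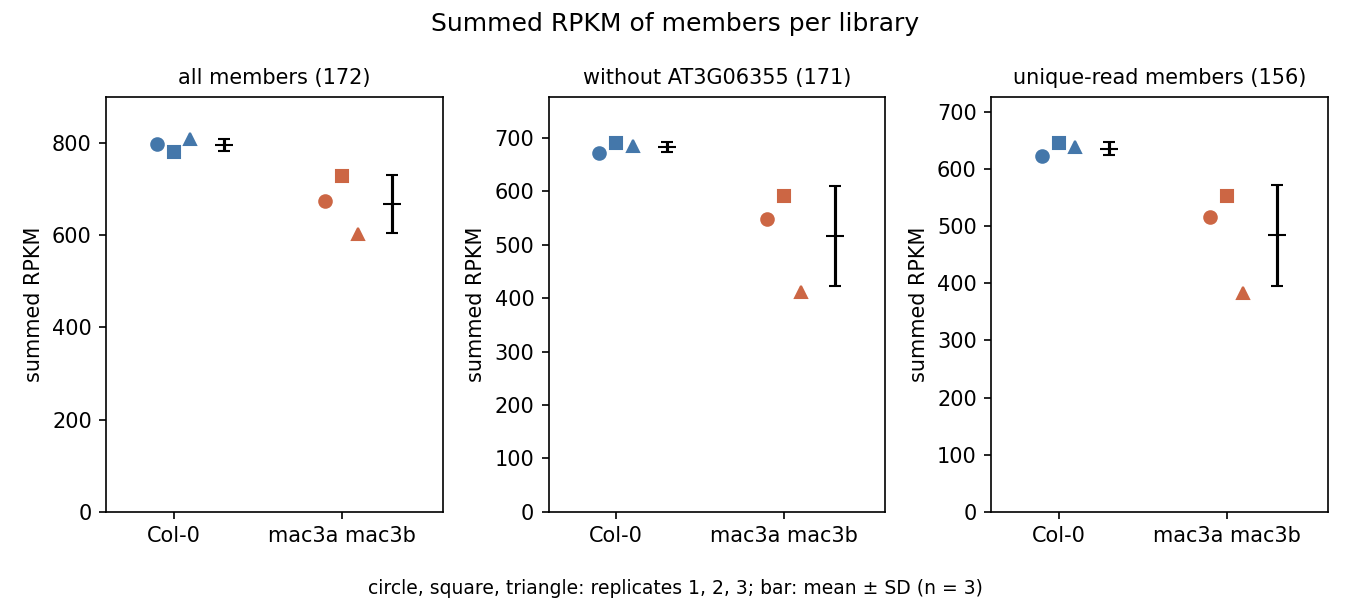
Summed RPKM per library over all members, without the most abundant member AT3G06355, and over the 156 members whose signal is close to that of their unique reads. Symbols are libraries by replicate number and bars are the mean ± SD (n = 3). In each panel the 3 mutant libraries lie below the 3 Col-0 libraries.

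The coding genes on the other strand were examined next. A protein-coding partner overlapped 145 of the members, 144 of them in exon bases, and a median of 77.8% of a member's exon bases lay in the partner's exons. The member was at a higher mean level than its partner in 86 cases, and 64 partners were under 1 RPKM. Of the 81 partners that could be tested, 0 passed limma without the block, where the unadjusted p was under 0.05 for 8 higher and 9 lower partners (the background at that threshold was 6.04% higher and 4.99% lower). With the block 4 passed as higher and 2 as lower (the background with the block was 2.7% higher and 1.82% lower). The median log2 fold change of the tested partners was −0.04.

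The partners that passed with the block were named after their values were seen. AT1G06000 (UGT89C1) was at 14.3, 15.2 and 43.7 RPKM in Col-0 and at 34.5, 33.8 and 88.4 RPKM in the mutant, so each mutant library was above the same-numbered Col-0 library while the groups overlapped, and the limma adjusted p was 0.532 (0.0254 blocked). GAPCP-1 (AT1G79530), a plastid glycolysis enzyme gene, AT2G04850 and AT4G26790 were also higher, with log2 fold changes of 0.81, 0.67 and 0.94. UGT85A4 (AT1G78270) and AT4G38540 were lower, with log2 fold changes of −1.17 and −1.39. The members opposite these genes are other than the 5 that passed with the block.

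Whether reads of a member and of its partner can be told apart depends on whether strand was used. The sources used here do not state it, and without strand, reads from both strands of a shared exon cannot be separated. In the whole table, 102 rows of these feature types lay wholly within exons of a coding gene on the other strand at 20 RPKM or more, and their median level was 0.0905% of that of the coding gene. Among the 20 members that lie wholly within their partner's exons, 16 had an RPKM within 5% of the level of their unique reads, and 9 were above their partner. The lowest was at 4.11% of its partner's level.

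Long noncoding RNAs with described roles were looked at as a list of 8. Of these, FLORE and COOLAIR (AT5G01675), the antisense RNA of the flowering repressor gene FLC, carry the feature types above, and COOLAIR was at no more than 0.08 RPKM in any library. The table lists the others under other feature types, so they are not members. Of the 4 that were tested, 0 passed without the block, and with it FLORE was lower and APOLO (AT2G34655), a noncoding RNA of auxin responses, was higher. APOLO was at 6.03, 8.63 and 6.88 RPKM in Col-0 and at 13.4, 14.1 and 11.7 RPKM in the mutant, at a limma adjusted p of 0.203 (0.0451 blocked). GUT15 (AT2G18440) was at 144, 256 and 216 RPKM in Col-0 and at 88.2, 163 and 161 RPKM in the mutant, where the groups overlapped. ASCO (AT1G67105), which binds splicing regulators, was at 0.59, 5.49 and 2.95 RPKM in Col-0 and at 0.65, 6.02 and 1.44 RPKM in the mutant. ELENA1, MARS and DRIR were below 1 RPKM.

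The precursors of trans-acting siRNAs, noncoding RNAs that are cut by a microRNA and turned into double-stranded RNA, were a list of 8, of which 5 were tested and 0 passed without the block. With the block 1 passed as higher and 0 as lower. TAS3 (AT3G17185), whose siRNAs act on auxin response factors, was at 4.32, 0.78 and 1.34 RPKM in Col-0 and at 7.62, 4.13 and 4.18 RPKM in the mutant, at a limma adjusted p of 0.422 (0.0464 blocked). The groups overlapped, and each pair was higher in the mutant. TAS1A, TAS1B, TAS1C and TAS2 had negative log2 fold changes of −0.38 to −0.70 and did not pass. At an unadjusted p under 0.05 there were 3 of the 5 precursors without the block, TAS3 higher and TAS1A and TAS1B lower. In the blocked fit there were 5, TAS3 higher and the others lower. The background at that threshold was 6.04% higher and 4.99% lower without the block, and 12.7% and 12.0% with it. None of the 7 genes of the siRNA and silencing machinery (such as AGO1, RDR6 and DCL4), and none of the 9 genes of noncoding RNA decay (such as XRN3, HEN2 and MTR4), passed limma with or without the block. At an unadjusted p under 0.05 these lists held 0 and 0 genes, and with the block 1 and 0. Their median log2 fold changes were −0.28 and 0.00. Both target mimics of phosphate starvation were under 1 RPKM.

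Introns of members were more retained in the mutant. Retention is given as the read depth of an intron in percent of the summed depth of the intron and its flanking exons. Of 316 member introns in the intron table, 286 in 108 members reached an intron plus exon depth of 10 in every library. Limma on the log2 ratio of the depths, each with 0.5 added, called 98 of these higher (34.3%) and 0 lower, compared with 62.3% and 0.0538% of all 94773 introns tested. With the replicate block 91 were higher and 0 lower, against 61.9% and 0.0528% of all introns. At an unadjusted p under 0.05 there were 112, and the share of all introns at that threshold is not given here. The 98 calls lay in 51 members, and in 87 of them the groups did not overlap. Over all tested member introns, 121 (42.3%) had every mutant library above every Col-0 library, against 65.5% of all introns. The median retention over member introns was 7.19, 6.09 and 5.32% in the Col-0 libraries and 12.4, 12.6 and 13.1% in the mutant libraries, while over all introns the mean of the library medians went from 0.210 ± 0.0525% to 1.65 ± 0.104% (SD, n = 3).

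The share called depends on depth, so introns were set beside those of mRNA rows of like exon depth, in ranges chosen after the files were seen. From 10 to 50, 25% of 60 member introns and 18.7% of mRNA introns were called higher. From 50 to 100 the shares were 30.7% of 101 and 32.1%, from 100 to 200 40.3% of 77 and 47.4%, and at 200 or more 43.8% of 48 and 70.9%.

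Member introns fell into kinds by position. Of the 250 that could be placed, 139 lay within an exon of another annotated transcript of the same member, and their median retention was 16.3 ± 1.66% in Col-0 and 22.3 ± 1.82% in the mutant (mean of the library medians, SD, n = 3). The 111 introns outside every exon of the member were at 1.49 ± 0.690% and 5.48 ± 0.733%. Of the former 17.99% were called higher and of the latter 51.4%. Some introns also lay wholly in an exon of a gene on the other strand, and these 94 were at 14.3 ± 2.00% in Col-0 and 21.1 ± 2.69% in the mutant, against 4.07 ± 0.795% and 9.68 ± 0.778% for the 63 that shared no exon base of the other strand. Among introns outside every exon of their own gene, the 26 wholly within an other-strand exon were at 3.69 ± 0.597% and 10.3 ± 2.02%, and the 35 with no such base at 0.631 ± 0.485% and 3.07 ± 0.436%. The part of other-strand reads in these depths was not tested.

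**Figure D5:**
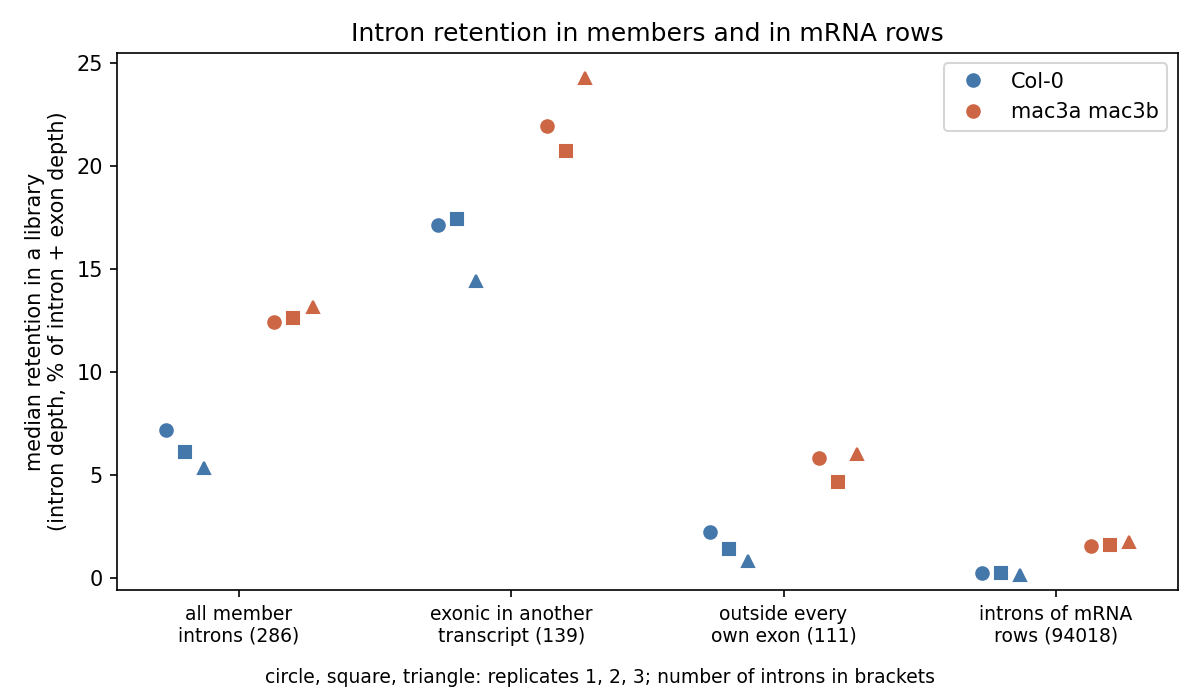
Median retention of introns in each library, as intron depth in percent of intron plus exon depth, for all member introns, for those that lie within an exon of another annotated transcript of the same member, for those outside every exon of the member, and for introns of mRNA rows. Symbols are libraries by replicate number. In each set the mutant libraries lie above the Col-0 libraries, from 16.3 to 22.3% in the second set and from 1.49 to 5.48% in the third set (means of the library medians).

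In percentage points, the intron with the largest rise was that of FLORE, 86 bases long. Its retention was 8.86, 10.8 and 7.69% in Col-0 and 33.05, 31.5 and 33.5% in the mutant, with a log2 change of 2.28 (SE 0.39), a limma adjusted p of 0.00222 (0.00687 blocked). The depth of its exons was 186, 292 and 194 in Col-0 and 26.7, 59.6 and 22.6 in the mutant, while that of the intron was 18.1, 35.4 and 16.2 in Col-0 and 13.2, 27.4 and 11.4 in the mutant. The exon depth differed far more between the genotypes than the intron depth. This intron lies wholly within an exon of CDF5, whose level was higher in the mutant, and the part of CDF5 reads in its depth was not tested.

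The single tested intron of CDF5, 260 bases long, was also more retained. Its retention was 3.65, 1.51 and 0.0158% in Col-0 and 11.9, 10.1 and 10.6% in the mutant, at a limma adjusted p of 0.0149 (0.0148 blocked).

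Other large rises had smaller depths or were less even between libraries. Intron 5 of AT2G23040 was at 10.1, 6.15 and 8.79% in Col-0 and 28.1, 27.9 and 32.9% in the mutant, at a mean exon depth of 34.3 and 27.9. It shares no base with an other-strand exon but lies within an exon of another transcript of the gene. Intron 4 of AT3G24518 was at 6.85, 4.96 and 9.22% in Col-0 and 23.04, 23.9 and 29.3% in the mutant. Of its bases 65.9% lie in exons of the other strand, and the part of other-strand reads in its depth was not tested. These 2 introns had limma adjusted p of 0.00378 and 0.00450, and 0.00898 and 0.00838 with the block, while the levels of both genes had overlapping groups.

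Intron 2 of AT3G21755, at a mean exon depth of 361 and 282, was at 10.7, 8.15 and 6.43% in Col-0 and 21.9, 17.8 and 39.3% in the mutant. It lies wholly within an exon of the other strand and within an exon of another transcript of its own gene. The gene on the other strand, HYR1, was at 33.8, 30.0 and 34.2 RPKM in Col-0 and at 19.4, 22.8 and 55.6 RPKM in the mutant, so it was highest in the same library as the retention, and its part was not tested. Intron 1 of AT1G72855 was at 0.585, 0.933 and 1.78% in Col-0 and 19.3, 9.79 and 24.2% in the mutant, the largest relative rise of the 6 at 16.1-fold and the largest log2 change of the depth ratio at 3.73 (limma adjusted p 0.00130, or 0.00438 blocked). It too lies wholly within an exon of the other strand and within one of its own gene, and the coding gene on the other strand, AT1G72860, was at a mean of 0.0433 RPKM. Intron 1 of AT2G31902 was at 13.8, 6.01 and 7.30% in Col-0 and 24.9, 18.6 and 42.6% in the mutant, at a mean exon depth of 24.6 and 17.7. Its limma adjusted p was 0.0199, and leaving out Col-0 replicate 2 or 3 or mutant replicate 3 raised it to 0.0654, 0.0585 and 0.0602. AT2G31902 had the most called introns, 7 of its 13 tested, but in intron 6 the call came with a mean retention of 0.0541% in Col-0 and 0.0468% in the mutant, where the added 0.5 sets the ratio. How many of the 98 calls of member introns were of this kind is not given here.

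Junction use was described from read counts without a test, where every library had 20 or more reads of both kinds together. Of 196 such donor or acceptor events in 34 members, all mutant shares were above all Col-0 shares in 14 and below in 13, and many of these are the same choice counted from both sides. None of 41 exon skipping events was separated in this way. The shares over the events of all genes are not given here, so these counts cannot be read as particular to members. In AT1G01448 the donor 32 bases beyond the annotated end of exon 2 took 24.7, 15.4 and 24.9% of the reads in Col-0 and 6.02, 9.20 and 5.26% in the mutant. In AT1G06265 the annotated donor of exon 3 was joined to a site 32 bases from the annotated start of exon 4. This junction took 76.6, 70.3 and 76.9% in Col-0 and 63.7, 46.1 and 50% in the mutant. The share is of all reads that joined these exons, which include those from a donor 19 bases upstream. In AT1G33415 the junction between the annotated ends of exons 5 and 6 took 48.8, 74.4 and 47.1% in Col-0 and 42.4, 28.2 and 32.0% in the mutant, of all reads that joined these exons at any of their sites. These events were chosen after their values were seen.

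Promoters of the members, from 250 bases before to 50 bases after the annotated start, were searched on both strands for 3 motifs. The evening element AAAATATCT was in 4 of 172 (2.33%), against 2.49% of all 37896 promoters and 3.24% of those of 16458 mRNA rows of at least 1 RPKM. Neither that motif nor the CCA1 binding site AAAAATCT holds the other. The CCA1 binding site was in 13 (7.56%, against 7.13% and 8.40%), and the G-box CACGTG in 8 (4.65%, against 6.46% and 9.11%). Of the 5 members called with the block, AT3G03165 alone held a match, a G-box starting 181 bases before its start. A match is a description of the letters in this window.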

How the data were processed

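Per the submitters' processing notes, the tools named are Trimmomatic, Bowtie2 and DESeq2 and the build is TAIR10; whether counting used strand is not given in the sources used here. The authors' deposited values per gene carry no stated unit. They were read as RPKM because, for 96.2% of rows with a mean count over 10, they were within 5% of the level of the authors' unique reads, and they include reads that map to several places. The deposited intron table holds coverage, as average depth of introns and exons, and the deposited junction tables hold read counts. Log2 fold changes and adjusted p-values from the authors' own table are named as such. Every sample column was matched to a sample.

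For expression, limma 3.58.1 (R 4.3.3, eBayes with trend) was fitted to log2(RPKM + 1), and introns with limma on log2 of the depth ratio with 0.5 added; the design allowed for counts, which 78 of the 172 members had. DESeq2 1.42.0 and edgeR 4.0.16 on unique counts were alternatives. Same-numbered libraries deviated together over all rows (r = 0.62, 0.78 and 0.43), so fits with the replicate block are given where they change a call. What a number marks is not stated.

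Both tests were tried on simulated data. The intron test recovered none of a small number of changed introns and most when many were changed, so its power for isolated changes was not shown. Positions and sequences are from RefSeq (TAIR10.1), where all 172 members matched by locus ID. Named were fixed lists, the first 10 members by level, calls with their partners, and the 6 largest intron rises in percentage points; no member intron was called lower. The members and lists were chosen with earlier results of these data known. The limit of 1.3 times the unique-read level for reads that map to several places, the ranges of RPKM and depth, and the minimum of 20 junction reads were set after the files were seen.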

Additional observations from a re-analysis of the deposited data

How the results depend on the processing

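Without the replicate block no member was called at either pseudocount (1 or 0.1), with or without a filter on low values, at a mean of at least 5 RPKM, with equal library totals, or without any single library (0 to 0). Calls appeared with the replicate block (5), with the block and equal totals (13, of which 12 were lower), with the block without replicate 2 (3) or 3 (2) but not 1 (0), with the block without members whose reads map to several places (4), in edgeR with the block (1), and in DESeq2 without (3) and with the block (14). The 14 shared 1 member, FLORE, with the 5. AT1G04313, AT1G25098, AT3G03165 and AT5G01215 had no value in the fits on unique counts and could not be called there. Of the partners, the replicate block gave 6 calls, 12 with equal totals, no filter 1, and leaving out a single library 0 to 0. Scaling to equal totals moved the median of all rows to below 0, and the members' median to −0.29. That median kept its sign throughout, from −0.34 at a mean of at least 5 RPKM to −0.14, and leaving out single libraries gave −0.30 to −0.14. The summed level gave −0.32 to −0.18 without single libraries and −0.35 with equal totals. Calls of more retained introns numbered 66 to 89 without single libraries, 72 with 0.05 added and 92 at a depth of 20. ASCO, not called in any fit, ranged from −0.78 to 0.28 without single libraries, above 0 without Col-0 replicate 2 (0.28) and mutant replicate 1 (0.27), and with the block was at 0.083 without replicate 3; the cause was not tested. Alternatives that combine the block with unique counts or left-out pairs, those for partners and single introns, and those on reads that map to several places were chosen after seeing the data. Levels near 1 RPKM and intron depths near 10 limit what the tests could detect.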

Other observations

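Some members varied more between replicate numbers than between genotypes. AT3G06655, a lnc_RNA of 300 bases, was at 2.06, 0.63 and 0.07 RPKM in Col-0 and at 7.51, 9.43 and 0.23 RPKM in the mutant, so the libraries numbered 3 were the lowest in both genotypes, and its log2 fold change of 1.45 was the largest positive one among members (limma adjusted p 0.618, or 0.142 in the blocked fit). AT3G06655 reached the minimum of 1 RPKM through the mutant level alone, so it had to be higher there. AT1G15175 ran from 5.23 to 0.38 RPKM in Col-0 and from 6.24 to 1.55 RPKM in the mutant, highest in the libraries numbered 1 and lowest in those numbered 3. Over the members alone, deviations from the genotype mean of same-numbered libraries had r of 0.69, 0.52 and 0.52 across members, which are not independent replicates.

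Exons of another gene on the same strand overlapped 34 members. The longest open reading frame among members was 607 codons, in AT5G06695, whose signal came from reads that map to several places. Several introns of 1 member were often called together, as in AT3G27990 and AT1G28715, each with 6 introns called more retained. These members were chosen after their values were seen.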
